A study of Mus musculus with 2 samples.

Results

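C-type lectin receptor genes were examined in macrophages grown from mouse bone marrow. The members were every named gene whose symbol is Clec followed by a digit or Cd209 followed by a letter, together with Mrc1, Mrc2, Mgl2, Ly75 and Cd302. They numbered 44 of the 19505 named genes measured, and each was read by its own probe set. The study had 2 samples, 1 array for each genotype. The LysM(+) array came from cells labelled LysM (+);MC4RTB/TB and the TB/TB array from cells labelled MC4RTB/TB, so both carried the TB form of MC4R, the melanocortin 4 receptor, on both alleles. As background, TB alleles of Mc4r are known to be silenced by a stop cassette that Cre can excise, and LysM (Lyz2) promoters are a common driver of Cre in myeloid cells such as macrophages, monocytes and neutrophils; the labels state neither point, and the arrays do not show whether excision took place. Both cultures were given M-CSF, the growth factor of macrophages, on day 0 and again on day 3, each time at a dose of 25 ng/mL, in medium with 10% serum, and were used from day 5 with no further treatment. The age, the sex and the number of mice behind each culture are not stated in the labels.

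C-type lectin receptors are membrane proteins with a domain that, in the typical members, binds sugars on microbes or on the body's own cells. Macrophages and dendritic cells use them to take up glycoproteins and to sense fungi, mycobacteria and dying cells. Some members signal through the ITAM-bearing adaptors Fcer1g (FcR gamma) or Tyrobp (DAP12) and the kinase Syk to Card9, others carry an inhibitory ITIM, and others mainly internalise their ligands. In mice many of the genes lie side by side, in a Dectin-2 cluster and a natural killer gene complex on chromosome 6 and in a Cd209 group on chromosome 8. Chromosome 6 held 24 of the 44 members and chromosome 8 held 10.

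Values are RMA expression values on the log2 scale, each difference is LysM(+) minus TB/TB, and a fold is 2 raised to the size of that difference. With 1 array per genotype there is no replicate error and no test, so each difference describes these 2 arrays. A gene reached the brightness floor when the higher of its 2 values was at least 6.12, the median of the named probe sets, and it was counted as lower or higher if its 2 values were also at least 1.5-fold apart. The 23 background control probe sets had values of up to 6.81, so a value between 6.12 and 6.81 lies within their range, and a fold that rests on such a value is not exact. In bulk cultures, fewer cells of a type and less RNA per cell cannot be told apart. The values of different genes are not compared with each other, since probe sets differ in their response.

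Of the 6 macrophage markers measured, all 6 reached the floor and 0 were counted, with Csf1r, the M-CSF receptor, at 17.69 in LysM(+) and 17.89 in TB/TB. Mertk lay just outside the threshold, with a difference of -0.57 or 1.49-fold, and 4 of the 6 markers had the lower value in LysM(+). Mc4r was at 4.45 in LysM(+) and 4.57 in TB/TB, under the floor, so it gives no check of the genotypes. Some markers of other cells also differed between the cultures. Of the 7 neutrophil markers that reached the floor, 3 were counted as higher in LysM(+) and 0 as lower. The 3 were Ltf, Retnlg and Elane, with differences of 1.38, 1.32 and 1.18. The TB/TB values of Retnlg and Elane, 6.29 and 6.46, lay within the background control range, so their folds are not exact. Of 5 monocyte markers measured 1 was counted as higher, Cx3cr1. For comparison, 10.9% of all genes above the floor were counted as higher and 5.16% as lower. Of the 8 dendritic cell markers 3 reached the floor and 1, the adhesion gene Cadm1, was counted as higher, while 5 of the 8 had the lower value in LysM(+) and the defining genes Zbtb46, Flt3 and Xcr1 were under the floor on both arrays. The 6 NK cell markers were all under the floor. Of the endothelial markers 2 of 5 reached the floor and 0 were counted, and of the fibroblast markers 3 of 5 reached it and 1, Col1a2, was counted as lower. Linear values summed over each list are mostly set by 1 or a few bright probe sets. The sums were higher in LysM(+) for neutrophil markers (103913 in LysM(+) against 78990 in TB/TB, mostly Ngp, which was not counted) and monocyte markers (7721 in LysM(+) against 5798 in TB/TB, mostly Ly6c2, which was not counted). Without Ngp the neutrophil sum was 22244 in LysM(+) against 16890 in TB/TB. Without Ly6c2 the monocyte sum was 1524 in LysM(+) against 973 in TB/TB. The sums were lower in LysM(+) for macrophage markers (440993 in LysM(+) against 491270 in TB/TB), endothelial markers (227 in LysM(+) against 253 in TB/TB) and fibroblast markers (1033 in LysM(+) against 1270 in TB/TB). The NK cell sum, 168 in LysM(+) against 156 in TB/TB, came only from genes under the floor and says little about expression. The endothelial sum also includes genes under the floor. The dendritic cell sum was 17008 in LysM(+) against 9604 in TB/TB, of which Cadm1 made up 96.3% and 93.2%, and without Cadm1 it was 634 in LysM(+) against 652 in TB/TB. The part of other cells in the results below was not tested.

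Of the 44 receptor genes, 23 reached the brightness floor, 20 of them on both arrays. Among the 23, 8 were counted as lower in LysM(+) and 1 as higher. The 8 were Clec10a, Mgl2, Clec4n, Clec4e, Clec4b2, Clec4a4, Cd302 and Clec2d, and the 1 was Ly75. Across all named genes that reached the floor, 5.16% were counted as lower and 10.9% as higher, against 34.8% and 4.35% of these members. By sign alone, 18 of the 23 members had the lower value in LysM(+), or 78.3%, against 42.9% of all 10137 genes above the floor. The median difference of the 23 was -0.25, and that of all genes above the floor was 0.07. A gene near the floor can reach it through the difference itself, so these shares describe the genes that passed and not the whole family. Over all 44 members, with no floor, 27 had the lower value in LysM(+) and the median difference was -0.15, against -0.01 for all 19505 genes. By sign, a lean to lower values was not particular to the receptors. Above the floor, 9 of 13 other C-type lectin-like genes (69.2%) and 8 of 11 IL-4 and STAT6 response genes (72.7%) were lower in LysM(+). So were 4 of 6 macrophage markers (66.7%). The shares were 11 of 24 receptor signalling genes (45.8%), 1 of 5 monocyte markers (20.0%) and 1 of 7 neutrophil markers (14.3%). Counted as lower were 7.69% of other C-type lectin-like genes, 9.09% of IL-4 and STAT6 response genes and 0% of macrophage markers. The share of the members was 34.8%.

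The share of genes counted as lower depended on brightness, and the members were counted in each range. Among genes whose higher value lay between the floor and 8, 8.68% of all genes were counted as lower, and 3 of 7 members were. Between 8 and 12 the shares were 3.82% of all genes and 2 of 6 members. At 12 or more they were 2.68% of all genes and 3 of 10 members, namely Clec4n, Cd302 and Clec2d, whose values were far above the background controls on both arrays. At a threshold of 2-fold 0 members were counted in either direction, although the folds of Clec4b2, Clec4a4, Mgl2 and Ly75 rest on values within the background control range and are not exact. The count is also sensitive to the exact threshold, since Cd302, Clec2d and Clec10a lay just inside it at 1.52-fold, 1.54-fold and 1.54-fold, and Clec4a3 lay just outside it at 1.41-fold.

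**Figure D1:**
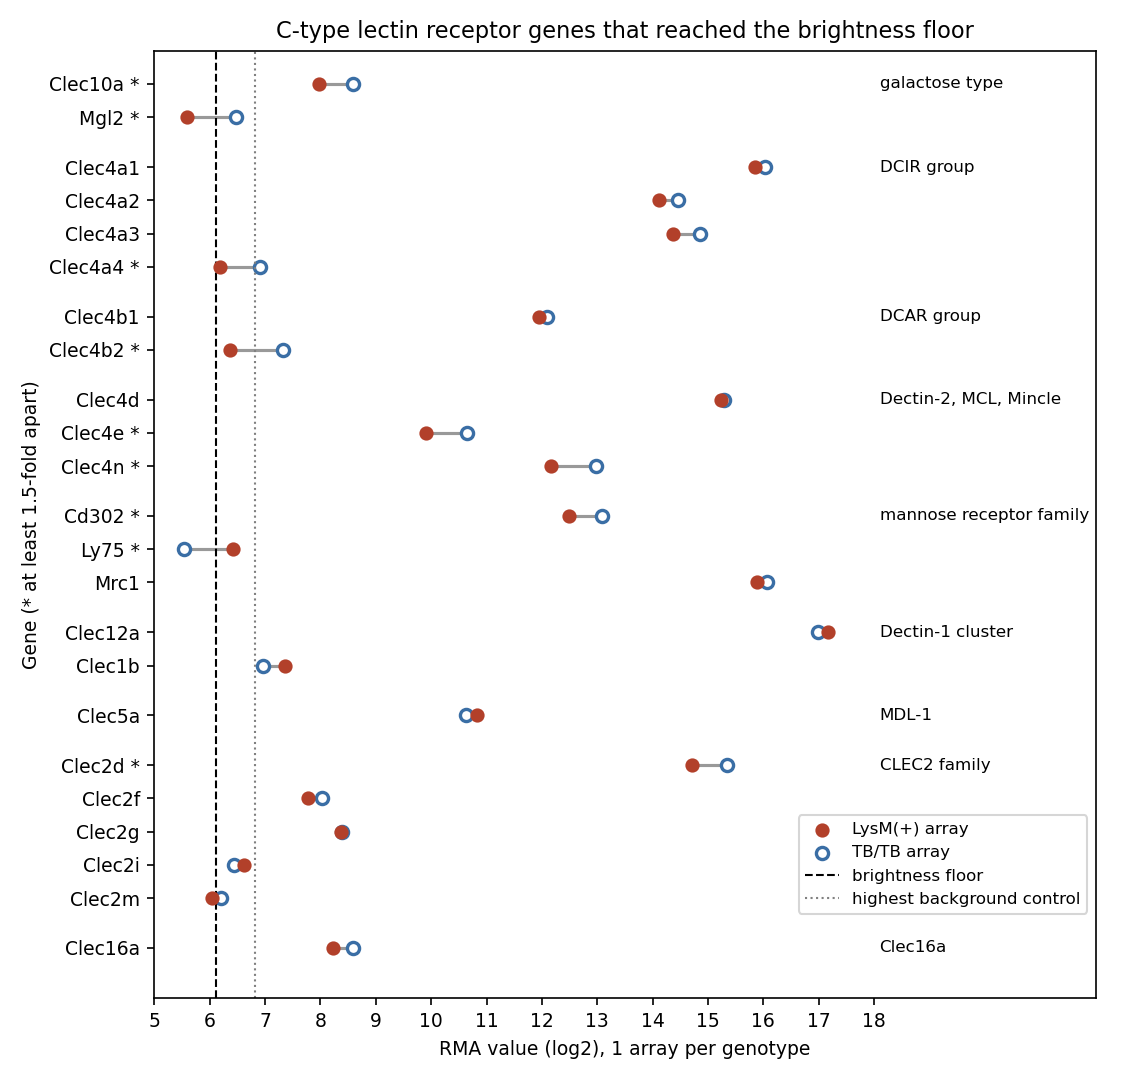
RMA values (log2, horizontal axis) of the 23 C-type lectin receptor genes that reached the brightness floor, with the LysM(+) array as filled points and the TB/TB array as open points, grouped by kind of receptor. The dashed line is the floor of 6.12 and the dotted line the highest background control at 6.81; an asterisk marks the 9 genes at least 1.5-fold apart, and 18 of the 23 have the LysM(+) point to the left.

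To show the DNA in front of genes that differed, the 250 bases upstream of the RefSeq start are given for each counted member with a window in the RefSeq table, which were 5 that were lower in LysM(+) and Ly75, which was higher. Coordinates are on GRCm38.p6, each sequence runs 5′ to 3′ on the strand of the gene, and capitals mark GAGGAA or its reverse complement TTCCTC, the core that PU.1 and other ETS factors of myeloid cells can bind.
Mgl2, chr11:70130107-70130356, plus strand: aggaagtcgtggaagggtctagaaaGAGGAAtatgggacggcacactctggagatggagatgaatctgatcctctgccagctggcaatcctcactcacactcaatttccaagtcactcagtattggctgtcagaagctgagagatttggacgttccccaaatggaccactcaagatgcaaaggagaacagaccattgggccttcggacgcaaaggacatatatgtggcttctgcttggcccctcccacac
Clec4e, chr6:123289872-123290121, minus strand: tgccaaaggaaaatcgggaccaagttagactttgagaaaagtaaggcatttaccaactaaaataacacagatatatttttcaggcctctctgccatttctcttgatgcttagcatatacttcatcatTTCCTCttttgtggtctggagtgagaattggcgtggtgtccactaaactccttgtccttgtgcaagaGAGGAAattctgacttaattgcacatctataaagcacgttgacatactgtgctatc
Clec4b2, chr6:123172773-123173022, plus strand: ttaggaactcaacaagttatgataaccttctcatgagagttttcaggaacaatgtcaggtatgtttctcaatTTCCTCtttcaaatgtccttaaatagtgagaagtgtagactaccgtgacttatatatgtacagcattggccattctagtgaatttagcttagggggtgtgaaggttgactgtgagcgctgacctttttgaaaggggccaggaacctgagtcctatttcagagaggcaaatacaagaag
Cd302, chr2:60284485-60284734, minus strand: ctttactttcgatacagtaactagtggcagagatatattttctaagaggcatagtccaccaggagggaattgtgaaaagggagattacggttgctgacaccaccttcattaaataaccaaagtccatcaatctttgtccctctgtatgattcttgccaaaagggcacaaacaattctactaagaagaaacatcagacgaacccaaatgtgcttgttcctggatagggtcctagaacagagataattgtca
Clec2d, chr6:129180365-129180614, plus strand: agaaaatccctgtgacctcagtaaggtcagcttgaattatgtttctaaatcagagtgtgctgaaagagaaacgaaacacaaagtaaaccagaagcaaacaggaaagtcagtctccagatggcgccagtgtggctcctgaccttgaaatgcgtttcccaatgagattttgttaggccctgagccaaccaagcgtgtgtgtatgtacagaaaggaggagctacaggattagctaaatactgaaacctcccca
Ly75, chr2:60383274-60383523, minus strand: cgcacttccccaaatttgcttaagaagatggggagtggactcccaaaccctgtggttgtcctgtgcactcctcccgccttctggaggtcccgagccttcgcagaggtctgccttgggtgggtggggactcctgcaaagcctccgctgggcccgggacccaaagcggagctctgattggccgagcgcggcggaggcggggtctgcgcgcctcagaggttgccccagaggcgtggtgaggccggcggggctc
The Clec4e window held 2 matches, the Mgl2 and Clec4b2 windows 1 each, and the Cd302, Clec2d and Ly75 windows 0. RefSeq upstream windows were matched for 36 of the 44 members, and 16 of those 36 genes held GAGGAA on either strand, against 25.9% of 27025 genes. Of the 5 lower members with a window, 3 held it. Motifs for C/EBP (TTGCNNAA) and AP-1 (TGANTCA) were each in 7 of the 36 members, against 10.8% and 7.82% of all genes. Of the 5 lower members with a window, 2 held the C/EBP motif and 0 the AP-1 motif. Both strands were searched, different motifs may overlap, and a gene with several starts was counted if any window held the motif. A match describes letters in the window and does not show that a factor bound there.

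The galactose-type lectins Clec10a and Mgl2, neighbours on chromosome 11, were both counted as lower in LysM(+), Mgl2 on values within the background range. They encode MGL1 (CD301a) and MGL2 (CD301b), which bind galactose and N-acetylgalactosamine and are used as markers of alternatively activated macrophages. Clec10a had a value of 7.97 in LysM(+) and 8.59 in TB/TB, a difference of -0.63 or 1.54-fold, with both values above the background controls. Mgl2 had 5.60 in LysM(+) and 6.47 in TB/TB, a difference of -0.87 or 1.83-fold. The Mgl2 value in LysM(+) was under the floor and both values lay within the background control range, so its fold is not exact. Mgl2 was not counted when both values had to reach the floor, or when the floor was set at the highest background control. Clec4f, the galactose-binding receptor of Kupffer cells, was under the floor at 4.02 in LysM(+) and 4.15 in TB/TB. Of the 10 named genes that flank the Mgl2 and Clec10a pair, 5 on each side, 6 reached the floor, 0 were counted as lower and 1, Alox12, as higher by 0.94. Alox12 had 6.70 in LysM(+) and 5.75 in TB/TB, both within the background control range, so its difference is not exact. Asgr2, a galactose-binding receptor gene next to Mgl2, had 7.21 in LysM(+) and 6.93 in TB/TB, a difference of 0.28.

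The 9 genes of the Dectin-2 cluster on chromosome 6 all reached the floor on both arrays, all 9 had the lower value in LysM(+), and 4 were counted. Their differences ran between -0.96 and -0.05 with a median of -0.50, whereas the other 14 members above the floor had a median of -0.17 and 4 of those were counted as lower. The activating receptors of the cluster pair with FcR gamma. Clec4n encodes Dectin-2, which binds mannose-rich glycans of fungi, and had 12.17 in LysM(+) and 12.97 in TB/TB, a difference of -0.80 or 1.74-fold. Clec4e encodes Mincle, the receptor for the mycobacterial glycolipid trehalose dimycolate, and had 9.90 in LysM(+) and 10.64 in TB/TB, a difference of -0.74 or 1.67-fold. Clec4d encodes MCL, which forms complexes with Mincle, and in contrast had nearly equal values of 15.24 in LysM(+) and 15.28 in TB/TB. The DCAR genes also differed unequally. Clec4b2 (DCAR1) had 6.37 in LysM(+) and 7.33 in TB/TB, a difference of -0.96 or 1.94-fold whose LysM(+) value lay within the background range, while Clec4b1 (DCAR) had 11.94 in LysM(+) and 12.09 in TB/TB, a difference of -0.15.

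The DCIR genes of the same cluster include inhibitory receptors, with an ITIM in DCIR1 and DCIR2. Clec4a2, which encodes DCIR1, the mouse receptor closest to human DCIR, had 14.12 in LysM(+) and 14.46 in TB/TB, a difference of -0.35. Clec4a3 (DCIR3) had 14.36 in LysM(+) and 14.86 in TB/TB, a difference of -0.50, and Clec4a1 (DCIR4) had 15.85 in LysM(+) and 16.04 in TB/TB, a difference of -0.18. Clec4a4 encodes DCIR2, known from a subset of dendritic cells, and was the counted member of this group, with 6.19 in LysM(+) and 6.90 in TB/TB, a difference of -0.71 or 1.63-fold. Its LysM(+) value was within the background control range. The Clec4a and Clec4b genes are close copies of one another, so probes can share signal and their differences are not independent of each other.

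The genes on either side of the Dectin-2 cluster were read for comparison. Of the 10 flanking genes, 4 reached the floor and 0 were counted, and all 10 differed by between -0.62 and 0.56. On one side lie C3ar1, the C3a receptor gene, at 18.02 in LysM(+) and 17.92 in TB/TB, and the endocytosis gene Necap1 at 11.58 in LysM(+) and 11.91 in TB/TB. On the other side are 5 vomeronasal receptor genes, 4 of them under the floor, all with the lower value in LysM(+). Vmn2r22, under the floor, was past 1.5-fold at -0.62. Necap1, and Dppa3 and Nanog under the floor, also had the lower value in LysM(+). Of the flanking genes only Slc2a3 and C3ar1 had the higher value.

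**Figure D2:**
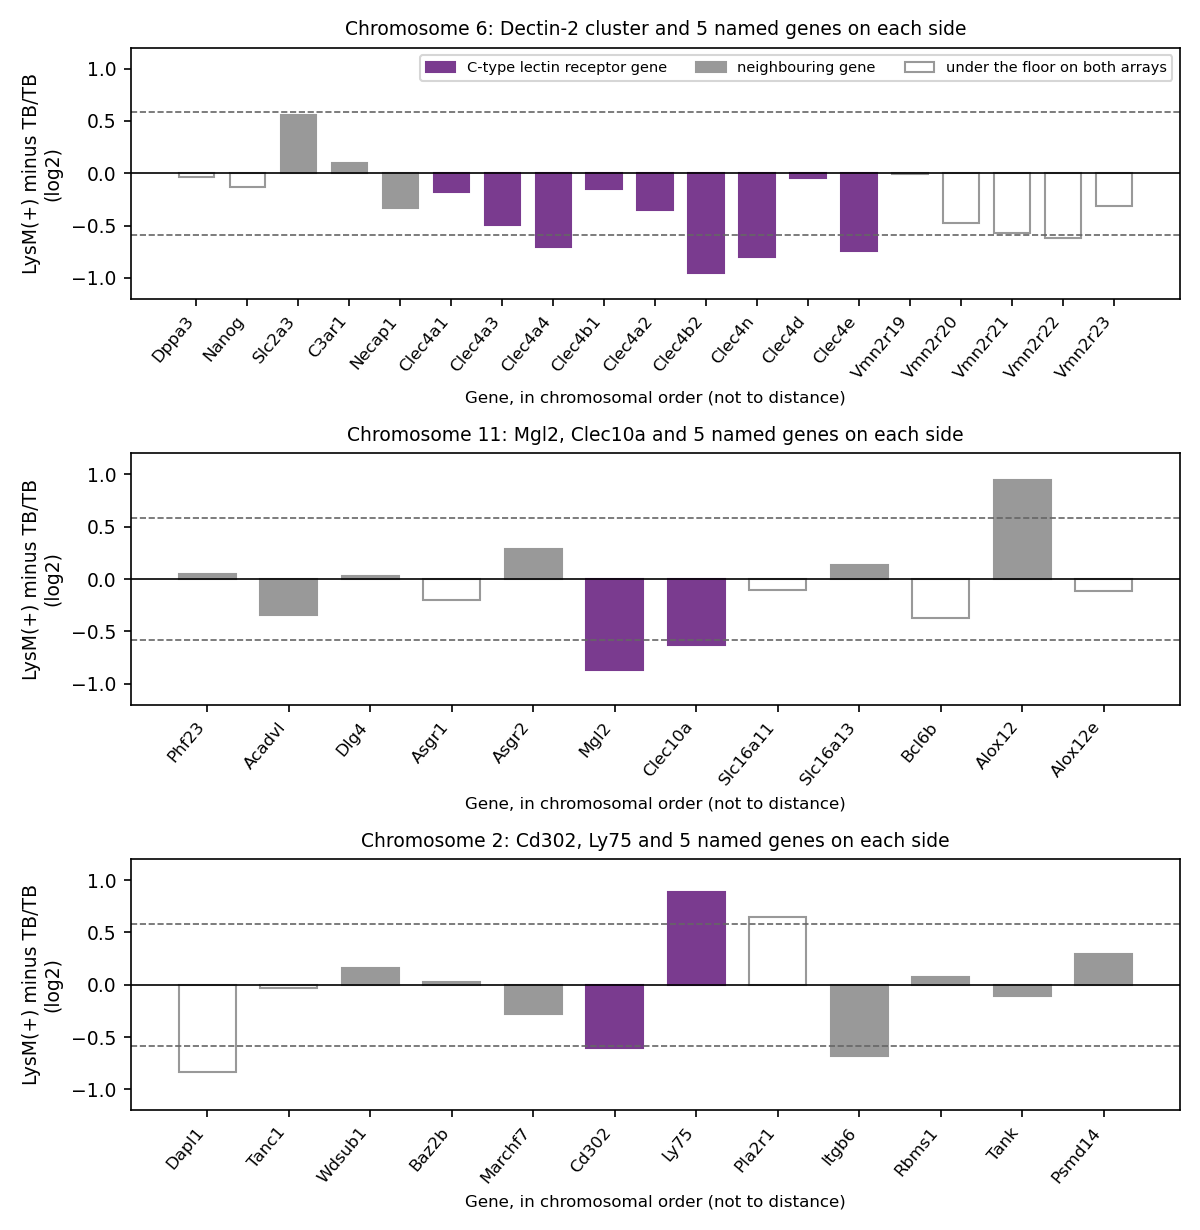
Difference LysM(+) minus TB/TB (log2, vertical axis) of C-type lectin receptor genes (purple) and of the 5 named genes on each side (grey), in chromosomal order without distances; open bars are genes under the floor on both arrays and dashed lines mark 1.5-fold. All 9 genes of the Dectin-2 cluster lie below 0 and 4 pass the line, Mgl2 and Clec10a both pass it, and the neighbours Cd302 and Ly75 lie on opposite sides of 0.

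Among the mannose receptor family and CD302, the endocytic receptor gene Mrc1 differed little. Mrc1, the mannose receptor CD206, had 15.89 in LysM(+) and 16.06 in TB/TB, a difference of -0.17 or 1.13-fold. Cd302, a receptor with a single lectin-like domain linked to uptake and migration, had 12.49 in LysM(+) and 13.09 in TB/TB, a difference of -0.61 or 1.52-fold. Ly75 encodes DEC-205, an uptake receptor best known in dendritic cells, and was the sole member counted as higher, with 6.43 in LysM(+) and 5.54 in TB/TB, a difference of 0.89. Both Ly75 values were within the background control range, so its 1.85-fold is not exact, and the gene was not counted when both values had to reach the floor or when the floor was the highest background control. Mrc2, the collagen receptor Endo180, was under the floor at 5.57 in LysM(+) and 5.78 in TB/TB. Cd302 and Ly75 lie next to each other on chromosome 2, and of the 10 genes around them 7 reached the floor, with 1 counted as lower, Itgb6, at -0.68.

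Of the 5 measured receptors of the Dectin-1 cluster, 2 reached the floor and 0 were counted. Clec12a encodes MICL, an ITIM-bearing receptor for uric acid crystals on myeloid cells, and had 17.16 in LysM(+) and 16.98 in TB/TB, a difference of 0.18. Clec1b encodes CLEC-2, the podoplanin receptor of platelets that is also found on myeloid cells, and had 7.35 in LysM(+) and 6.96 in TB/TB, a difference of 0.40 or 1.32-fold. Of 4 platelet and megakaryocyte markers measured, all of which reached the floor, the chemokine genes Ppbp and Pf4 were counted as higher, by 2.16 and 1.23, while Itga2b and Gp9 differed by -0.21 and -0.07, and the summed linear value of the 4, mostly Pf4, was 5645 in LysM(+) against 2481 in TB/TB. The part of platelet-lineage RNA in the Clec1b value was not tested. Clec9a (DNGR-1), the receptor for exposed actin filaments on cross-presenting dendritic cells, was at 4.03 in LysM(+) and 3.83 in TB/TB, and Clec1a and Clec12b were likewise under the floor. Clec7a, the beta-glucan receptor Dectin-1, was not analysed here, because none of the named probe sets carried its symbol. Clec5a encodes MDL-1, which signals through DAP12, and had 10.84 in LysM(+) and 10.62 in TB/TB, a difference of 0.21.

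The Clec2 genes encode ligands of natural killer cell receptors, and 5 of the 8 measured reached the floor. Clec2d encodes Clr-b, the ligand by which cells hold natural killer cells in check through the inhibitory receptor NKR-P1B. It had 14.72 in LysM(+) and 15.34 in TB/TB, a difference of -0.62 or 1.54-fold, and was the member of the family that was counted. Clec2g had near-equal values of 8.38 in LysM(+) and 8.39 in TB/TB, and Clec2f had 7.78 in LysM(+) and 8.03 in TB/TB, a difference of -0.25. Clec2i (Clr-g), at 6.62 in LysM(+) and 6.45 in TB/TB, and Clec2m, at 6.05 in LysM(+) and 6.21 in TB/TB, were within the background control range on both arrays. These genes too are close copies whose probes can share signal. Clec16a matches the naming rule but encodes an endosomal protein that acts in mitophagy and not a sugar receptor, and had 8.22 in LysM(+) and 8.58 in TB/TB, a difference of -0.35.

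The other 21 members were under the floor on both arrays, with values of 3.48 to 5.57 in LysM(+) and 3.31 to 5.81 in TB/TB. All 7 Cd209 genes measured, the mouse relatives of DC-SIGN, were among them, as was their relative Clec4g (LSECtin), known from liver sinusoidal endothelium. So were Clec3a and Clec3b (tetranectin), the growth factor gene Clec11a, the endothelial gene Clec14a and Clec18a, and in the Clec2 family Clec2e, Clec2h and Clec2l. Of the 21, 9 had the lower and 12 the higher value in LysM(+), and 1, Clec4g, was past 1.5-fold, at 4.20 in LysM(+) and 4.93 in TB/TB. All of these values lay within the background control range, so their differences say little about expression.

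**Figure D3:**
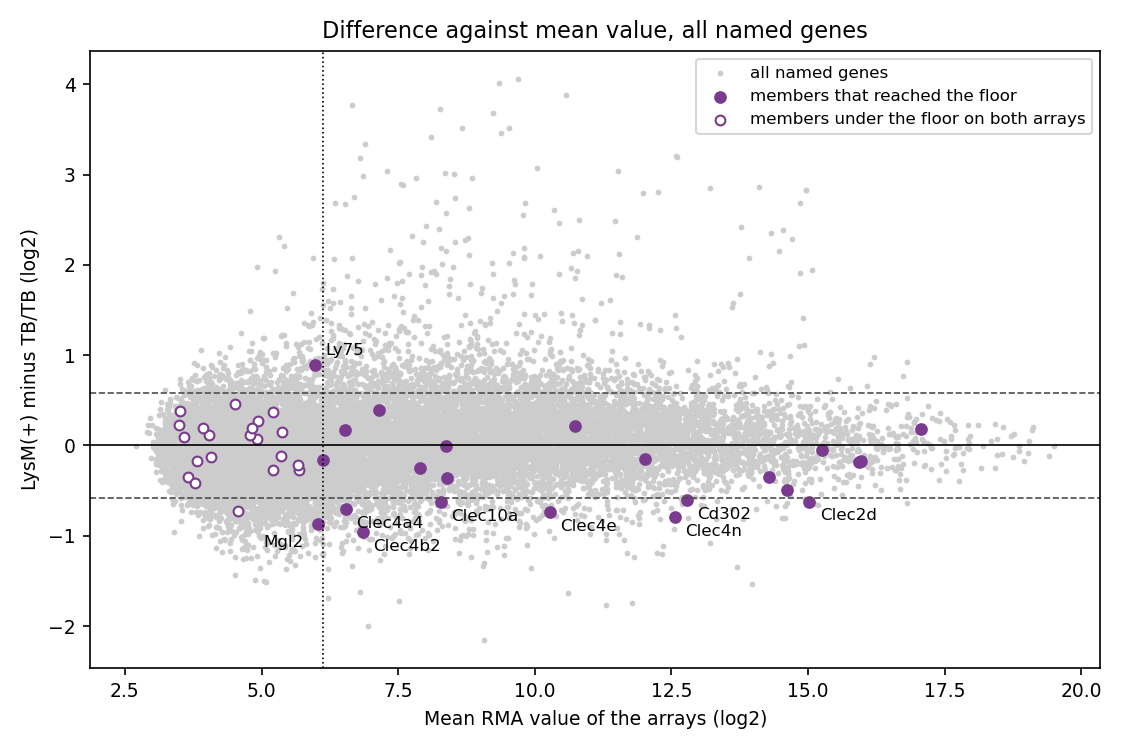
Difference LysM(+) minus TB/TB (log2, vertical axis) against the mean RMA value of the arrays (log2, horizontal axis) for 19505 named genes (grey) and the 44 C-type lectin receptor genes (purple, open where under the floor on both arrays). Dashed lines mark 1.5-fold and the dotted line the floor of 6.12; the 8 labelled genes below the lower line lie at mean values from near the floor upwards, and Ly75 is the labelled gene above the upper line.

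None of the shared signalling genes of these receptors was counted as differing (0 genes). Of 27 genes measured in the list of C-type lectin receptor signalling, 24 reached the floor and 0 were counted in either direction. Of all genes above the floor, 5.16% were counted as lower and 10.9% as higher. These shares were not matched to the brightness of the 24 genes, and the contrast with them was not tested. The median difference of the 24 was 0.02. The adaptor genes were nearly equal, with Fcer1g at 18.20 on both arrays and Tyrobp at 16.48 in LysM(+) and 16.51 in TB/TB. Syk had the lowest difference of the list, with 13.56 in LysM(+) and 14.04 in TB/TB, a difference of -0.48 or 1.40-fold. Card9, which relays Syk signals to NF-kB, had 8.83 in LysM(+) and 9.01 in TB/TB, a difference of -0.18. Among the 24 that reached the floor, the NF-kB gene Rel had the highest difference, 0.39.

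Other genes with a C-type lectin-like domain were counted at shares near those of all genes. Of 40 measured, 13 reached the floor, of which 2 (15.4%) were counted as higher and 1 (7.69%) as lower, against 10.9% and 5.16% of all genes above the floor, and the median difference of the 13 was -0.19. Cd72, an ITIM-bearing receptor of B cells and some macrophages, had 16.69 in LysM(+) and 15.72 in TB/TB, a difference of 0.98, and Colec12, a scavenger receptor, had 10.54 in LysM(+) and 9.71 in TB/TB, a difference of 0.83. Mbl2, a secreted mannose-binding lectin made mainly by the liver, had 6.38 in LysM(+) and 7.53 in TB/TB, a difference of -1.15 whose LysM(+) value lay within the background range.

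Because Clec10a, Mgl2 and Mrc1 are used as markers of alternative activation, genes that respond to IL-4 and STAT6 were read beside them. Of 26 measured, 11 reached the floor, 0 were counted as higher and 1 (9.09%) as lower, against 10.9% and 5.16% of all genes above the floor. The median difference of the 11 was -0.13. The counted gene was Pdcd1lg2, which encodes the checkpoint ligand PD-L2, at 6.20 in LysM(+) and 7.33 in TB/TB. Its LysM(+) value lay within the background control range. Chil3, which encodes the chitinase-like protein Ym1, had 13.66 in LysM(+) and 13.28 in TB/TB, a difference of 0.38, and Arg1 and Retnla were under the floor on both arrays.

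**Figure D4:**
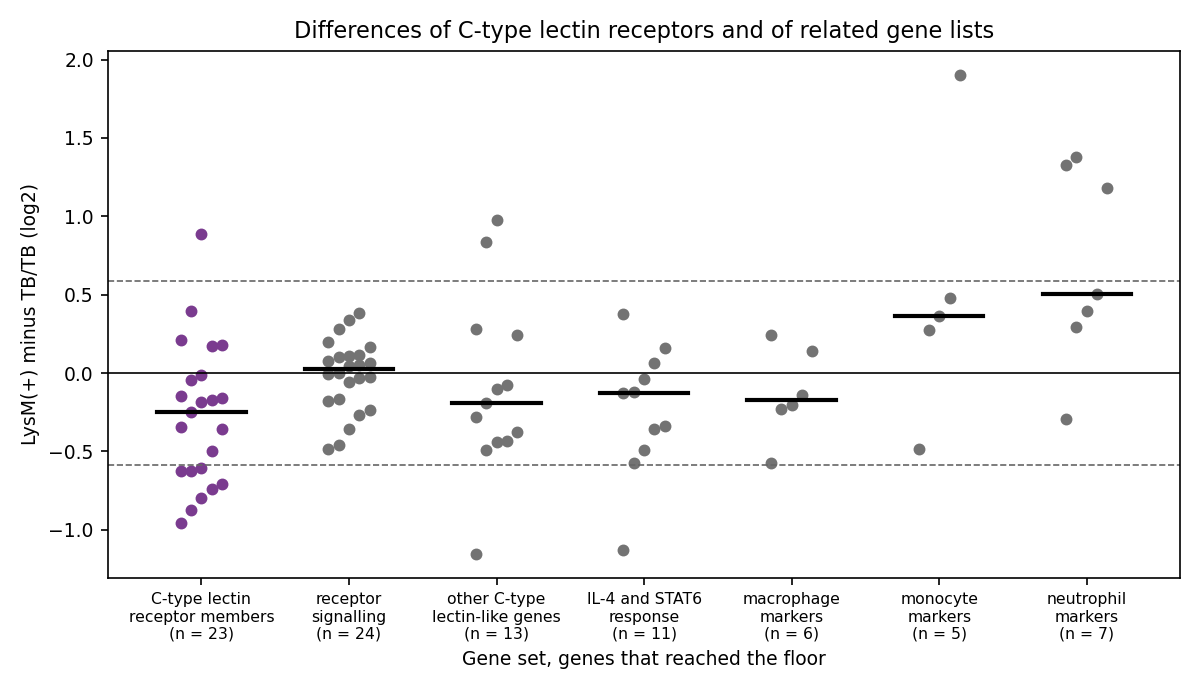
Difference LysM(+) minus TB/TB (log2, vertical axis) of each gene that reached the floor, for the 23 C-type lectin receptor genes (purple) and for 6 gene lists (grey), with n under each name; thick bars are medians and dashed lines mark 1.5-fold. The receptor genes have a median of -0.25 and 9 points past the lines, while the 24 signalling genes have a median of 0.02 and 0 points past them. Medians are -0.19 for other C-type lectin-like genes, -0.13 for IL-4 and STAT6 response genes and -0.17 for macrophage markers. They are 0.36 for monocyte markers and 0.51 for neutrophil markers.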

How the data were processed

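Total RNA from 2 macrophage cultures, 1 per genotype, was labelled with biotin and hybridised to whole-transcript arrays, per the labels' protocols. The deposited values are log2 expression values that the authors made with RMA, run in Affymetrix Expression Console according to the submitters' processing notes, whose version is not given here; base 2 was assumed for the logarithm because RMA uses it. Values ran from 2.57 to 19.5, higher than is usual for RMA, so the folds depend on this reading.

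Of 28846 probe sets, 19572 had a gene symbol in the platform annotation, updated by Entrez ID to RefSeq symbols of GRCm38.p6, and covered 19505 genes. Genes with several probe sets took their mean. Groups came from the genotype label. Counts used the floor and the 1.5-fold threshold given above, with Python 3.11.15, pandas 2.3.3 and statsmodels 0.14.6, and the counting was checked on simulated data. Every member that reached the floor is named, with up to 6 counted genes of each other list; further genes were chosen after their values were seen. The members and the 11 lists (137 of 147 genes measured) were chosen with earlier results of these data known. No scanner intensities or detection calls were used here. The number of arrays limits the precision. The alternatives were centring, quantile normalization, loess (span 0.4), the brightest probe set, other floors and a 2-fold threshold.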

Additional observations from a re-analysis of the deposited data

How the results depend on the processing

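The 8 members counted as lower were the same 8 genes after quantile normalization and loess (span 0.4), and Ly75 remained the 1 counted as higher. Centring and use of the brightest probe set gave the same calls but could not have changed them. Each member had its own single probe set. Centring shifted all differences alike, by less than the gap between any of the 23 and the threshold. Cd302, the nearest to it, had -0.6077 as deposited and -0.6015 after centring. Across these settings the median difference of the 23 members stayed between -0.30 and -0.24. With the floor at the highest background control, or with both values at the floor, 7 of the 8 remained, without Mgl2, and 0 were higher. With no floor Clec4g joined them, and all genes counted as lower came to 1075. At 2-fold 0 members were lower and 0 higher, against 87 and 329 of all genes, as fewer genes pass a higher threshold. Other C-type lectin-like genes counted came to 6 with no floor and 1 at 2-fold, dendritic cell markers to 2 and 0, and fibroblast markers to 0 at 2-fold. Of the macrophage markers 1, Mertk, was counted as lower after quantile normalization and 1 was counted after loess. The cause was not tested. No paired analysis was possible because each genotype had 1 array. Among the members that reached the floor, signal over background limits Mgl2, Ly75, Clec4a4, Clec4b2, Clec2i and Clec2m.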
